A study of Mus musculus with 8 samples.

Results

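The genes described here encode integrin subunits, laminin chains, other basement membrane proteins and the laminin receptor dystroglycan. They were chosen by name, with earlier results of these data known. The members comprised 35 of the 56923 genes counted, namely 20 integrin subunits, 10 laminin chains, and *Nid1*, *Nid2*, *Hspg2*, *Agrn* and *Dag1*. Their RNA was measured in thymic epithelial cells (TECs) of wild-type (WT) mice that received no treatment, with 2 libraries in each of 4 groups. *In vivo* TECs were sorted from embryonic thymi and lysed at once, by a gate that took EpCAM+ cells and left out cells with blood, endothelial or mesenchymal surface markers. The other groups started from TECs of the same embryonic stage and mouse strain, sorted in the same way. 2D TECs grew for 3 days as a flat culture on plates coated with laminin. Organoids grew inside Matrigel, a hydrogel rich in basement membrane protein, for 3 days (D3 organoids) or 7 days (D7 organoids). All 3 cultures were kept in medium with the growth factor FGF7, so that culture and FGF7 cannot be told apart against *in vivo* TECs. For organoids the authors also added the compound thiazovivin for the first 2 days, and do not say whether 2D TECs received it. Laminin coat against Matrigel and flat against three-dimensional growth changed together, and cannot be told apart in these libraries. The same holds for any difference in thiazovivin. 2D TECs and D3 organoids were collected after the same time in culture.

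Integrins are receptors of an alpha and a beta subunit that tie the cell's cytoskeleton to matrix outside the cell or to partner proteins on other cells. Laminins are trimers of an alpha, a beta and a gamma chain that form the sheet of the basement membrane, where nidogens link them to type IV collagen and where perlecan and agrin are the main proteoglycans. In the thymus, basement membranes lie under the capsule and around vessels, and epithelial cells there hold on through laminin-binding integrins.

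Library preparation by QuantSeq primes reads at the 3′ end of polyadenylated transcripts, so counts do not grow with transcript length. Values are CPM, the counts relative to a library size scaled by edgeR's TMM method. Totals were between 5084715 and 7612532 counts per library, and 3 counts, the limit that a count of 0 allows, came to 0.372 to 0.593 CPM. This limit covers counting error only. In all 8 libraries at least 10 of 11 TEC markers were above it, although *Psmb11*, a thymoproteasome subunit of cortical TECs, was at 0.507 to 0.979 CPM in 2D TECs and D3 organoids, against 523 and 556 CPM *in vivo*. No library was a copy of its replicate (chi-square of 6.86 to 8.47 per degree of freedom, where sampling noise alone gives about 1). As these are bulk libraries, fewer cells of a type and less RNA per cell cannot be told apart.

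A gene was tested if 3 or more libraries had 1 CPM or more, which kept 14504 genes and 27 of the 35 members. Fold changes below are fitted log2 fold changes ± SE with adjusted p-values from the quasi-likelihood test of edgeR, fitted to the 8 libraries together, and a difference passed at an adjusted p below 0.05. A gene detected in a single group cannot reach 3 libraries, so *Itga4* and *Itgb6* were removed although they were well above the floor *in vivo* and in 2D, respectively. The other members removed were *Itga5*, *Itga7*, *Itga10*, *Itga11*, *Lama2* and *Lamc3*, none of which had more than 14 counts in any library.

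The comparison of 2D TECs with *in vivo* TECs asks how flat culture differs from the tissue. Of the 27 members tested, 15 were higher and 5 lower in 2D, beside 41.6% of all genes tested that passed in either direction (19.9% higher and 21.7% lower). The members' median log2 fold change was 0.68, against -0.06 for all genes tested. In D3 organoids over *in vivo* TECs 7 members were higher and 5 lower, beside 28.2% of all genes (14.1% higher and 14.0% lower), and in D7 organoids 11 were higher and 7 lower, beside 34.8% (18.0% and 16.8%). Medians were 0.22 and 0.09 in these 2 comparisons. In D3 organoids over 2D TECs 7 members were higher and 11 lower, beside 38.3% of all genes (19.3% higher and 19.1% lower). In D7 organoids over 2D TECs 7 were higher and 14 lower, beside 45.5% of all genes (24.4% higher and 21.1% lower), with a median of -0.76. Between D7 and D3 organoids 5 members were higher and 3 lower at day 7, beside 20.8% of all genes (10.9% higher and 9.91% lower). Comparisons that share a group of libraries are not independent of each other. The count for D7 organoids over *in vivo* TECs was 11 in all without D7 replicate 2, and that for D7 over D3 organoids was 5 without D3 replicate 2 and 2 without D7 replicate 2.

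**Figure D1:**
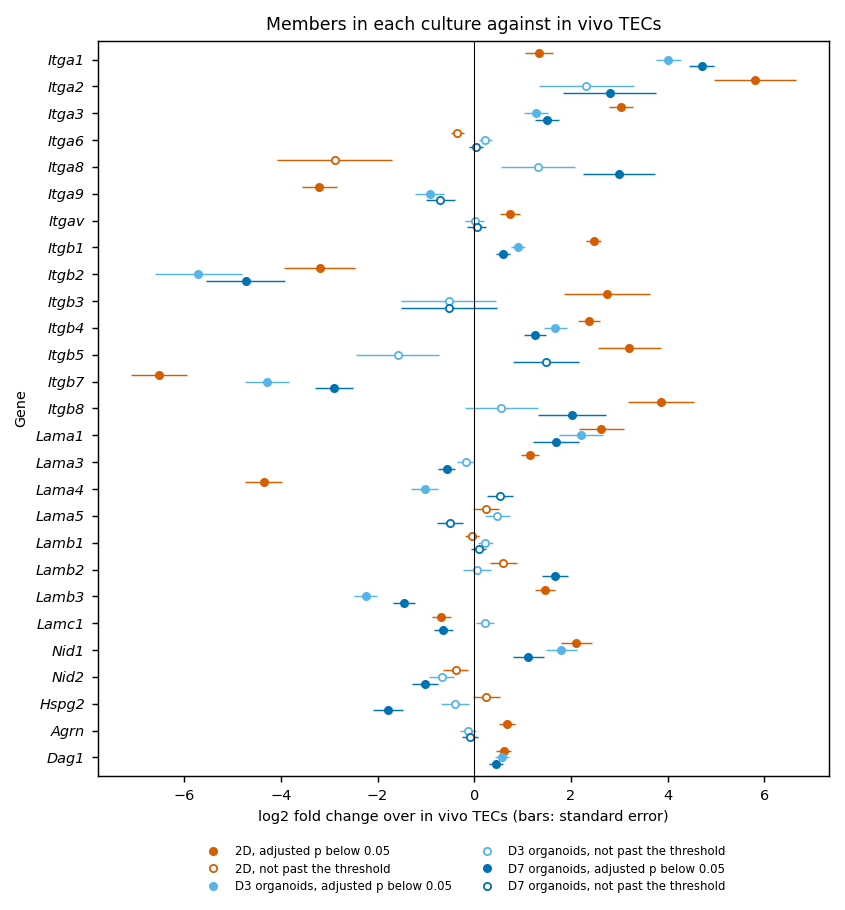
Log2 fold change of each of the 27 members tested in 2D TECs, D3 organoids and D7 organoids over *in vivo* TECs, with bars for the standard error; filled points have an adjusted p below 0.05 and open points do not. *Itgb1*, *Itga3* and *Itgb4* lie to the right of 0 in all cultures with 2D furthest out, *Itga1* lies furthest right in organoids, and *Lama4* lies at -4.36 in 2D but at 0.53 in D7 organoids.

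Among the laminin-binding integrins, *Itgb1*, *Itga3* and *Itgb4* rose in every culture, and each was highest in 2D. *Itgb1* encodes the beta subunit shared by most matrix-binding integrins (ENSMUSG00000025809, GRCm39 chromosome 8, 129411876 to 129460618, plus strand). It was at 170 and 147 CPM *in vivo*, 886 and 868 CPM in 2D, 300 and 293 CPM in D3 organoids, and 260 and 218 CPM in D7 organoids. The 2D libraries were the highest of the 8, the *in vivo* libraries the lowest, and no *in vivo* library overlapped with a culture. The log2 fold change over *in vivo* was 2.47 ± 0.15 in 2D (adjusted p = 1e-09), 0.91 ± 0.15 in D3 organoids (adjusted p = 0.00017) and 0.59 ± 0.15 in D7 organoids (adjusted p = 0.0052). D7 organoids were lower than 2D (-1.88 ± 0.15, adjusted p = 2.7e-08). The increase in D7 organoids over *in vivo* was 0.49 without *in vivo* replicate 2 and 0.46 without D7 replicate 1, with adjusted p of 0.059 and 0.078, so that call rested on single libraries.

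*Itga3* encodes an alpha subunit that pairs with *Itgb1* to bind laminins (ENSMUSG00000001507, chromosome 11, 94935296 to 94967682, minus strand). It was at 10.6 and 9.87 CPM *in vivo*, 79.8 and 88.5 CPM in 2D, 20.3 and 28.8 CPM in D3 organoids, and 24.2 and 34.8 CPM in D7 organoids. The 2D libraries stood well above all others, and the organoid days overlapped. Over *in vivo*, the log2 fold change was 3.04 ± 0.25 in 2D (adjusted p = 3.5e-08), 1.27 ± 0.25 in D3 organoids (adjusted p = 0.0011) and 1.51 ± 0.25 in D7 organoids (adjusted p = 0.00018).

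*Itgb4*, the beta subunit of the hemidesmosome, was at 23.7 and 35.8 CPM *in vivo*, 143 and 167 CPM in 2D, 76.4 and 116 CPM in D3 organoids, and 65.5 and 78.3 CPM in D7 organoids (ENSMUSG00000020758, chromosome 11, 115865333 to 115899239, plus strand). All culture libraries were above both *in vivo* libraries, and both 2D libraries were above all organoid libraries. The log2 fold change over *in vivo* was 2.38 ± 0.23 in 2D (adjusted p = 2.6e-07), 1.68 ± 0.23 in D3 organoids (adjusted p = 2.3e-05) and 1.26 ± 0.23 in D7 organoids (adjusted p = 0.00039). The fall from 2D to D3 organoids (-0.69 ± 0.22, adjusted p = 0.018) no longer passed with library size alone as the scaling (-0.42), without 2D replicate 2 (-0.58) or without D3 replicate 1 (-0.43), with adjusted p of 0.13 to 0.2.

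*Itga6* encodes the alpha subunit that joins *Itgb4* in the hemidesmosome and also pairs with *Itgb1*. Its values were 291 and 294 CPM *in vivo*, 225 and 235 CPM in 2D, 337 and 348 CPM in D3 organoids, and 301 and 299 CPM in D7 organoids. Replicates were close, and 2D was the lowest group for this gene, unlike for *Itgb4* and *Itgb1*. The difference from *in vivo* did not pass in 2D (-0.35 ± 0.14, adjusted p = 0.055) or in D7 organoids (0.04 ± 0.14, adjusted p = 0.87). D3 organoids were higher than 2D (0.57 ± 0.14, adjusted p = 0.0034). D7 organoids were higher than 2D by 0.38 ± 0.14 (adjusted p = 0.033), a call lost without any 1 of the 2D or D7 libraries (0.34 to 0.41, adjusted p of 0.081 to 0.15), with DESeq2 size factors (0.34, adjusted p = 0.057), with no filter (0.35, adjusted p = 0.11) and without ribosomal RNA genes (0.34, adjusted p = 0.063).

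**Figure D2:**
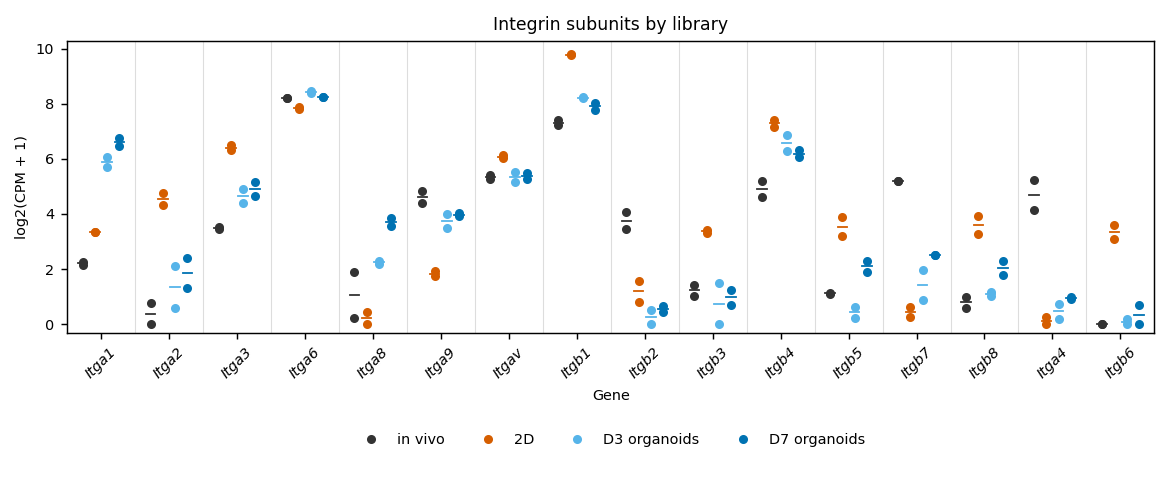
Level of 16 integrin subunits in each library, as log2(CPM + 1), with a point per library, a line at the mean of the 2 points and a colour per group; *Itga4* and *Itgb6*, at the right, were removed by the filter. For *Itgb1*, *Itga3* and *Itgb4* the 2D points are the highest, for *Itga1* and *Itga8* the D7 points are, and for *Itgb7* both *in vivo* points lie above 5 with 2D below 1.

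The collagen-binding alpha subunits *Itga1* and *Itga2* moved to different cultures. Both pair with *Itgb1*, and *Itga1* binds type IV collagen of basement membranes. *Itga1* (ENSMUSG00000042284, chromosome 13, 115089632 to 115238677, minus strand) was at 3.48 and 3.81 CPM *in vivo*, 9.27 and 9.28 CPM in 2D, 51.2 and 66.7 CPM in D3 organoids, and 87.1 and 106 CPM in D7 organoids. Its groups followed one another in that order with no overlap. Over *in vivo*, the log2 fold change was 1.34 ± 0.29 in 2D (adjusted p = 0.0012), 4.01 ± 0.26 in D3 organoids (adjusted p = 2.8e-09) and 4.71 ± 0.26 in D7 organoids (adjusted p = 5.3e-10), and D7 organoids were higher than 2D by 3.37 ± 0.23 (adjusted p = 4e-09). The step from D3 to D7 was 0.71 ± 0.2 (adjusted p = 0.017), and it was 0.53 without D3 replicate 1 and 0.57 without D7 replicate 2, with adjusted p of 0.16 and 0.2.

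*Itga2* (ENSMUSG00000015533, chromosome 13, 114969617 to 115068636, minus strand) lies beside *Itga1* on the chromosome. It was at 0 and 0.705 CPM *in vivo*, 19.1 and 26 CPM in 2D, 0.507 and 3.36 CPM in D3 organoids, and 1.49 and 4.35 CPM in D7 organoids. It was high in both 2D libraries alone, and its organoid replicates were uneven. The fitted increase in 2D over *in vivo* was 5.81 ± 0.85 (adjusted p = 3.2e-05), a size that depends on the prior count because *in vivo* libraries held 0 and 5 counts. D7 organoids were lower than 2D (-3.01 ± 0.67, adjusted p = 0.0014). D7 organoids over *in vivo* gave 2.8 ± 0.96 (adjusted p = 0.032), and the call was lost with limma-voom (3.06, adjusted p = 0.11), in a fit of those groups alone (2.87, adjusted p = 0.075), and without *in vivo* replicate 1, 2D replicate 1, 2D replicate 2 or D7 replicate 2 (1.91 to 2.82, adjusted p of 0.052 to 0.25). The collagen-binding subunits *Itga10* and *Itga11* had at most 11 and 1 counts in a library.

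Among the integrins that bind the RGD motif of fibronectin, vitronectin and latent TGF-beta, *Itgav* and its partners were higher in 2D. *Itgav*, the alpha subunit that partners several beta subunits, was at 41.3 and 37.8 CPM *in vivo*, 63.5 and 68.9 CPM in 2D, 34.8 and 44.5 CPM in D3 organoids, and 43.8 and 37.6 CPM in D7 organoids. Both 2D libraries were above the other 6, which overlapped among themselves. 2D was higher than *in vivo* by 0.74 ± 0.2 (adjusted p = 0.0057). The falls to D3 organoids (-0.74 ± 0.2, adjusted p = 0.0066) and D7 organoids (-0.7 ± 0.2, adjusted p = 0.0079) were -0.47 and -0.49 with library size alone as the scaling (adjusted p = 0.077 and 0.061). They were -0.57 without D3 replicate 1 (adjusted p = 0.071) and -0.59 without D7 replicate 2 (adjusted p = 0.079), respectively.

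Of the beta partners of *Itgav*, *Itgb3*, *Itgb5*, *Itgb6* and *Itgb8* were low outside 2D. *Itgb3* was at 1.04 and 1.69 CPM *in vivo*, 9.82 and 8.91 CPM in 2D, and 0 to 1.82 CPM in the organoid libraries. *Itgb5* was at 1.22 and 1.13 CPM *in vivo*, 13.8 and 8.17 CPM in 2D, 0.169 and 0.559 CPM in D3 organoids, and 2.73 and 3.95 CPM in D7 organoids. *Itgb8*, which with *Itgav* activates latent TGF-beta, was at 0.522 and 0.987 CPM *in vivo*, 8.73 and 14.3 CPM in 2D, 1.01 and 1.26 CPM in D3 organoids, and 2.48 and 3.95 CPM in D7 organoids. In each of the 3 genes both 2D libraries lay above all other libraries. *Itgb6*, another activator of latent TGF-beta that is typical of epithelia, was at 11.1 and 7.61 CPM in 2D, at 0 in both *in vivo* libraries, and at most 0.62 CPM in organoids. Its level in 2D was at least 19.8-fold higher than *in vivo*, taking 3 counts per library as the floor, and 122 times that in D3 organoids, which held 1 count (95% counting interval 21.5 to 4884). Counting intervals, here and below, pool the libraries of a group and leave out the spread between them.

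In 2D over *in vivo*, the log2 fold change was 2.74 ± 0.89 for *Itgb3* (adjusted p = 0.019), 3.21 ± 0.66 for *Itgb5* (adjusted p = 0.00086) and 3.87 ± 0.68 for *Itgb8* (adjusted p = 0.00019). That of *Itgb3* was 2.45 to 2.82 with adjusted p of 0.071 to 0.094 without *in vivo* replicate 1, 2D replicate 1 or 2D replicate 2. *Itgb5* fell by 4.79 ± 0.76 on the log2 scale from 2D to D3 organoids (adjusted p = 8.4e-05) and was higher in D7 than in D3 organoids by 3.06 ± 0.79 (adjusted p = 0.011). The latter difference was lost with limma-voom (2.97, adjusted p = 0.058), without D3 replicate 1 (2.52, adjusted p = 0.084) and without D7 replicate 2 (2.8, adjusted p = 0.087). Of the 50-base words in the last 500 bases of *Itgb5* transcripts, 11% also occur in *Gm38317*, so reads of these genes could be split or joined. *Itgb8* in D7 organoids over *in vivo* (2.02 ± 0.7, adjusted p = 0.033) did not pass with limma-voom, in a fit of those groups alone, or without *in vivo* replicate 1, 2D replicate 2, D7 replicate 1 or D7 replicate 2 (1.65 to 2.33, adjusted p of 0.05 to 0.2).

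*Itga8* and *Itga9* were low in 2D. *Itga8*, which pairs with *Itgb1* to bind nephronectin and other RGD proteins (ENSMUSG00000026768, chromosome 2, 12110900 to 12307214, minus strand), was at 0.174 and 2.68 CPM *in vivo*, 0 and 0.371 CPM in 2D, 3.55 and 3.91 CPM in D3 organoids, and 13.3 and 10.7 CPM in D7 organoids. D7 organoids were the highest group, without overlap, but their difference from D3 organoids did not pass (1.68 ± 0.68, adjusted p = 0.093). Differences from *in vivo* did not pass in 2D (-2.89 ± 1.19, adjusted p = 0.061), where libraries overlapped, or in D3 organoids (1.32 ± 0.76, adjusted p = 0.22). The ratio to 2D, where 2 counts were seen, was 20.4 in D3 organoids (95% counting interval 5.36 to 173; adjusted p = 0.0054) and 66.8 in D7 organoids (18.2 to 556; adjusted p = 0.00017). D7 organoids were higher than *in vivo* by 2.99 ± 0.75 (adjusted p = 0.005), and by 2.84 without D7 replicate 1 (adjusted p = 0.058). Without 2D replicate 1, D3 organoids over 2D gave 3.26 with an adjusted p of 0.063.

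*Itga9*, which with *Itgb1* binds tenascin-C and osteopontin (ENSMUSG00000039115, chromosome 9, 118435722 to 118730072, plus strand), was at 27.7 and 20.3 CPM *in vivo*, 2.36 and 2.78 CPM in 2D, 10.3 and 15 CPM in D3 organoids, and 15.3 and 14.2 CPM in D7 organoids. *In vivo* libraries were the highest and 2D libraries the lowest. It was lower in 2D than *in vivo* (-3.21 ± 0.36, adjusted p = 1.5e-06), and D7 organoids were higher than 2D by 2.51 ± 0.37 (adjusted p = 3e-05). D7 organoids over *in vivo* gave -0.7 ± 0.3 (adjusted p = 0.079). D3 organoids over *in vivo* gave -0.92 ± 0.3 (adjusted p = 0.029), which did not pass with library size alone, with no filter, with DESeq2's Wald test, or without *in vivo* replicate 1 or D3 replicate 1 (-0.9 to -0.68, adjusted p of 0.05 to 0.21). *Itga5*, the alpha subunit of the main fibronectin receptor, had at most 8 counts in a library, and *Itga7*, a laminin-binding subunit of muscle, at most 12.

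*Itga4*, *Itgb2* and *Itgb7*, integrin subunits typical of leukocytes, were highest in the *in vivo* libraries. *Itga4* (ENSMUSG00000027009, chromosome 2, 79085660 to 79163467, plus strand), which pairs with *Itgb1* or *Itgb7* on lymphocytes, was at 36.4 and 16.6 CPM *in vivo* and at 0 to 0.989 CPM in the other 6 libraries. The ratio of *in vivo* to 2D, where 1 count was seen, was 277 (95% counting interval 49.4 to 10988). *Itgb2*, the beta subunit of leukocyte integrins, was at 15.7 and 10 CPM *in vivo*, 2 and 0.743 CPM in 2D, 0 and 0.419 CPM in D3 organoids, and 0.372 and 0.593 CPM in D7 organoids. *Itgb7* was at 35.2 and 35.7 CPM *in vivo*, 0.546 and 0.186 CPM in 2D, 2.87 and 0.839 CPM in D3 organoids, and 4.71 and 4.75 CPM in D7 organoids. In each of the 3 genes both *in vivo* libraries were above all culture libraries.

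Without the filter, *Itga4* in 2D over *in vivo* had an adjusted p of 9.9e-22 and *Itgb6* one of 1.1e-08, but that fit gave much smaller p-values for low genes in general, and took *Itga2* in D7 organoids over 2D from 0.0014 to 1.1e-08. *Itgb2* was lower in 2D than *in vivo* (-3.2 ± 0.73, adjusted p = 0.0019), and its *in vivo* level was 54.6 times that in D3 organoids (95% counting interval 18.4 to 268; adjusted p = 0.00011) and 27.4 times that in D7 organoids (12.3 to 75.8; adjusted p = 0.00027). The *in vivo* level of *Itgb7* was 96.5 times that in 2D, where 4 counts were seen (37.4 to 356; adjusted p = 7.2e-08). *Itgb7* was lower in D7 organoids than *in vivo* (-2.9 ± 0.4, adjusted p = 2.5e-05), yet higher there than in 2D (3.62 ± 0.66, adjusted p = 0.00028). Its increase from 2D to D3 organoids (2.23 ± 0.76, adjusted p = 0.029) was lost with limma-voom (1.88, adjusted p = 0.23) and without either 2D library or D3 replicate 1 (1.15 to 3.14, adjusted p of 0.053 to 0.34).

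The summed level of 10 thymocyte markers was 682 and 302 CPM *in vivo* and 2.36 to 9.29 CPM in culture. At least 8 of the 10 were above the floor in each *in vivo* library, where *Rag1* was at 287 and 133 CPM and *Ptprc*, which encodes CD45, at 95.6 and 42 CPM. *Itga4* and *Itgb2*, like the marker sum, were higher in *in vivo* replicate 1 than in replicate 2, and *Itgb7* was at nearly the same level in both. Of 6 other alpha subunits of leukocytes and platelets, edgeR tested 1, *Itga2b*, which did not pass in any comparison. *Itga2b* was at 0.696 and 2.68 CPM *in vivo*, 0.727 and 0.928 CPM in 2D, 0.169 and 1.4 CPM in D3 organoids, and 3.85 and 4.15 CPM in D7 organoids. *Itgal*, the partner of *Itgb2* on lymphocytes, was removed by the filter, at 17.9 and 5.08 CPM *in vivo* and 0 to 0.791 CPM in culture, and it was higher in *in vivo* replicate 1 too. It was called lower in all 3 cultures than *in vivo* in the fits with no filter, of 2 groups alone and without ribosomal RNA genes (-6.89 to -3.96, adjusted p of 1.7e-09 to 0.0025). *Itga2b* was called higher in D7 organoids than in 2D in the fit of 2 groups alone (2.2, adjusted p = 0.013) and without *in vivo* replicate 1 (2.24, adjusted p = 0.047). The part of thymocyte RNA in the levels of these integrin genes was not tested. Myeloid markers summed to 0.419 to 12.3 CPM, endothelial markers to 1.12 to 6.96 CPM and erythroid markers to 0 to 12 CPM. The highest myeloid sums, 12.3 and 11.7 CPM in D7 organoids, held 12.2 and 10.3 CPM of *Lyz2*. *Csf1r*, *Adgre1* and *C1qa* were at 0 in the D7 libraries. Of the endothelial markers, *Cdh5*, a cadherin of endothelium, was at 0 in all 8 libraries. *Pecam1* was at 3.66 and 5.22 CPM *in vivo* and at 0 to 0.557 CPM in culture, and *Eng* at 2.26 and 0.423 CPM *in vivo* and 0.198 to 0.928 CPM in culture. The platelet list reached 819 and 594 CPM in 2D through *Ppbp*, a chemokine, while *Gp9* and *Gp1bb* were at 0 there.

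**Figure D3:**
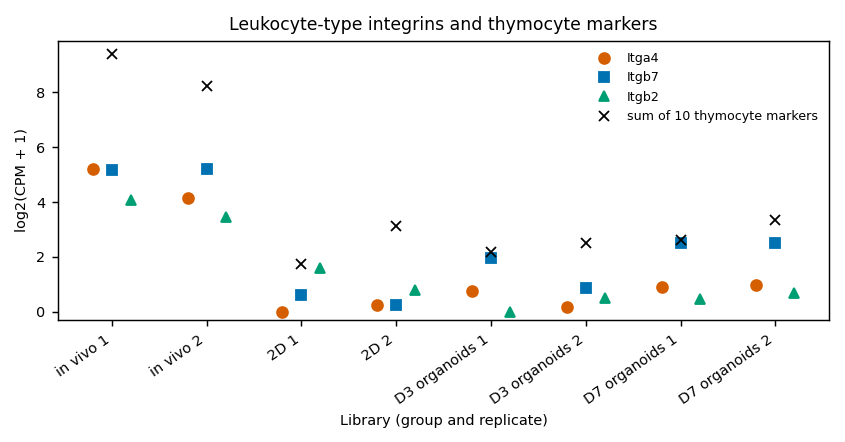
Level of *Itga4*, *Itgb7* and *Itgb2* and the sum of 10 thymocyte markers in each of the 8 libraries, as log2(CPM + 1). The marker sum is 682 and 302 CPM in the *in vivo* libraries and at most 9.29 CPM in the cultures, and all 3 integrin genes are highest in the *in vivo* libraries.

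The laminin alpha chains, which carry the part of the trimer that integrins bind, each had a pattern of their own. *Lama4* (ENSMUSG00000019846, chromosome 10, 38841141 to 38998403, plus strand), a chain known from vessels and mesenchyme, was at 40 and 69.5 CPM *in vivo*, 4 and 1.3 CPM in 2D, 30.1 and 24 CPM in D3 organoids, and 73.9 and 85.2 CPM in D7 organoids. It was lowest in 2D and highest in D7 organoids, with no overlap between groups. It fell by 4.36 ± 0.38 on the log2 scale in 2D relative to *in vivo* (adjusted p = 5.5e-08). D7 organoids were higher than 2D by 4.89 ± 0.37 (adjusted p = 1.5e-08) and higher than D3 organoids by 1.56 ± 0.28 (adjusted p = 0.001), and their difference from *in vivo* was 0.53 ± 0.27 (adjusted p = 0.14). The lower level in D3 organoids than *in vivo* (-1.02 ± 0.28, adjusted p = 0.011) was -0.56 without *in vivo* replicate 2 and -0.8 without D3 replicate 2, with adjusted p of 0.18 and 0.13. The sum of 8 mesenchyme markers was 50 and 49.5 CPM *in vivo*, 36.4 and 32.5 CPM in 2D, 22.1 and 18.3 CPM in D3 organoids, and 80.9 and 71.4 CPM in D7 organoids. In D7 organoids *Dcn* made up 53.6 and 51 CPM of it and *Lum* 14.9 and 7.51 CPM, with 7 and 6 of the 8 markers above the floor. *In vivo*, *Dcn* was at 18.3 and 23.1 CPM and *Lum* at 0.696 and 3.1 CPM. *Col1a1* was lower in D7 organoids (1.49 and 1.19 CPM) than *in vivo* (8.35 and 4.09 CPM). *Postn* was lower too (1.36 and 0.791 against 4.53 and 3.39 CPM). *Col3a1* (3.47 and 2.97 against 3.48 and 5.64 CPM) and *Col1a2* (4.96 and 7.71 against 6.44 and 5.92 CPM) were not clearly higher. Of the receptors used in the sort, *Pdgfra* was at 0.868 and 0.198 CPM in D7 organoids and at 0 in both *in vivo* libraries. *Pdgfrb* was at 0.248 and 0 CPM in D7 organoids and at 8.18 and 4.23 CPM *in vivo*. The part of mesenchyme RNA in the level of *Lama4* was not tested.

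*Lama1* encodes the alpha chain of the laminin most abundant in Matrigel. It was at 2.26 CPM in both *in vivo* libraries, 14.7 and 13.4 CPM in 2D, 8.96 and 12 CPM in D3 organoids, and 4.59 and 10.5 CPM in D7 organoids. All culture libraries were above *in vivo*, and the organoid days overlapped. The log2 fold change over *in vivo* was 2.63 ± 0.46 in 2D (adjusted p = 0.0002), 2.21 ± 0.46 in D3 organoids (adjusted p = 0.0015) and 1.69 ± 0.47 in D7 organoids (adjusted p = 0.01). The last was 1.02 without D7 replicate 2 (adjusted p = 0.21) and 1.45 with limma-voom (adjusted p = 0.063).

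*Lama3*, the alpha chain of the laminin that anchors hemidesmosomes, was at 67.2 and 78.4 CPM *in vivo*, 147 and 178 CPM in 2D, 66.4 and 62.5 CPM in D3 organoids, and 55 and 42.5 CPM in D7 organoids. Both 2D libraries lay above all others. It rose in 2D by 1.15 ± 0.18 (adjusted p = 6e-05) and was lower in D7 organoids than in 2D (-1.73 ± 0.18, adjusted p = 9e-07). The lower level in D7 organoids than *in vivo* (-0.57 ± 0.18, adjusted p = 0.023) was lost without *in vivo* replicate 2 (-0.46, adjusted p = 0.12) and without D7 replicate 2 (-0.4, adjusted p = 0.24). Of the 50-base words in the last 500 bases of its transcripts, 42% are shared with 10 other genes, among them *Rpl27a* and its pseudogenes, so values of *Lama3* are uncertain.

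*Lama5*, the most widespread epithelial alpha chain, was at 23.7 and 25.7 CPM *in vivo*, 24.2 and 34.5 CPM in 2D, 27.2 and 41.5 CPM in D3 organoids, and 20.2 and 14.2 CPM in D7 organoids. D7 organoids were the lowest group, but their difference from *in vivo* did not pass (-0.5 ± 0.27, adjusted p = 0.17). D7 organoids were lower than 2D (-0.75 ± 0.27, adjusted p = 0.033) and lower than D3 organoids (-0.98 ± 0.27, adjusted p = 0.016). The first call was lost with library size alone as the scaling (-0.54, adjusted p = 0.13), without 2D replicate 2 (-0.49, adjusted p = 0.27) and without D7 replicate 2 (-0.53, adjusted p = 0.24). The second was lost without D3 replicate 2 (-0.71, adjusted p = 0.15) and without D7 replicate 2 (-0.76, adjusted p = 0.18). *Lama2*, the chain of muscle basement membrane, had at most 5 counts in a library.

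Of the beta chains, *Lamb1* passed in none of the 6 comparisons, *Lamb2* was highest in D7 organoids and *Lamb3* in 2D. *Lamb1*, the beta chain of most laminins, was at 320 and 387 CPM *in vivo*, 319 and 365 CPM in 2D, 430 and 397 CPM in D3 organoids, and 355 and 400 CPM in D7 organoids, with adjusted p of 0.17 to 0.83 over the 6 comparisons. *Lamb2* was at 9.4 and 12 CPM *in vivo*, 17.6 and 14.9 CPM in 2D, 8.96 and 13.3 CPM in D3 organoids, and 32.5 and 35.8 CPM in D7 organoids. Both D7 libraries were above the other 6. D7 organoids were higher than *in vivo* by 1.67 ± 0.27 (adjusted p = 0.00016), than 2D by 1.07 ± 0.27 (adjusted p = 0.0037) and than D3 organoids by 1.61 ± 0.27 (adjusted p = 0.00061).

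*Lamb3*, which joins *Lama3* in the laminin under hemidesmosomes (ENSMUSG00000026639, chromosome 1, 192890007 to 193027705, plus strand), was at 35 and 44.7 CPM *in vivo*, 103 and 118 CPM in 2D, 7.1 and 9.51 CPM in D3 organoids, and 12.9 and 16.6 CPM in D7 organoids. 2D was above *in vivo* and *in vivo* above both organoid days, without overlap. The log2 fold change over *in vivo* was 1.47 ± 0.21 in 2D (adjusted p = 2.5e-05), -2.25 ± 0.24 in D3 organoids (adjusted p = 1.5e-06) and -1.45 ± 0.23 in D7 organoids (adjusted p = 0.0001). At the same time in culture, D3 organoids were lower than 2D (-3.72 ± 0.24, adjusted p = 2.7e-09). The rise from D3 to D7 organoids (0.8 ± 0.25, adjusted p = 0.032) was lost with limma-voom, in a fit of those groups alone, and without D3 replicate 1, D3 replicate 2 or D7 replicate 2 (0.62 to 0.97, adjusted p of 0.056 to 0.24).

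*Lamc1*, the gamma chain of most laminins, was at 86.2 and 104 CPM *in vivo*, 51.6 and 67 CPM in 2D, 119 and 103 CPM in D3 organoids, and 65.3 and 56.2 CPM in D7 organoids. *In vivo* TECs and D3 organoids overlapped at the upper end, and 2D TECs and D7 organoids at the lower end. D3 organoids were higher than 2D by 0.9 ± 0.19 (adjusted p = 0.00095), and D7 organoids were lower than D3 organoids (-0.87 ± 0.19, adjusted p = 0.0033; -0.76 with adjusted p = 0.056 without D7 replicate 2). 2D was lower than *in vivo* (-0.68 ± 0.19, adjusted p = 0.0073), a call lost without *in vivo* replicate 2 (-0.53, adjusted p = 0.068) and without 2D replicate 1 (-0.5, adjusted p = 0.11). D7 organoids were lower than *in vivo* (-0.64 ± 0.19, adjusted p = 0.012), a call lost without *in vivo* replicate 2 (-0.51, adjusted p = 0.085) and without D7 replicate 2 (-0.54, adjusted p = 0.12). *Lamc3* had 14 and 9 counts *in vivo* and 0 to 5 counts in culture, and its *in vivo* level was at least 3.36-fold higher than in 2D, where both libraries were at 0.

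**Figure D4:**
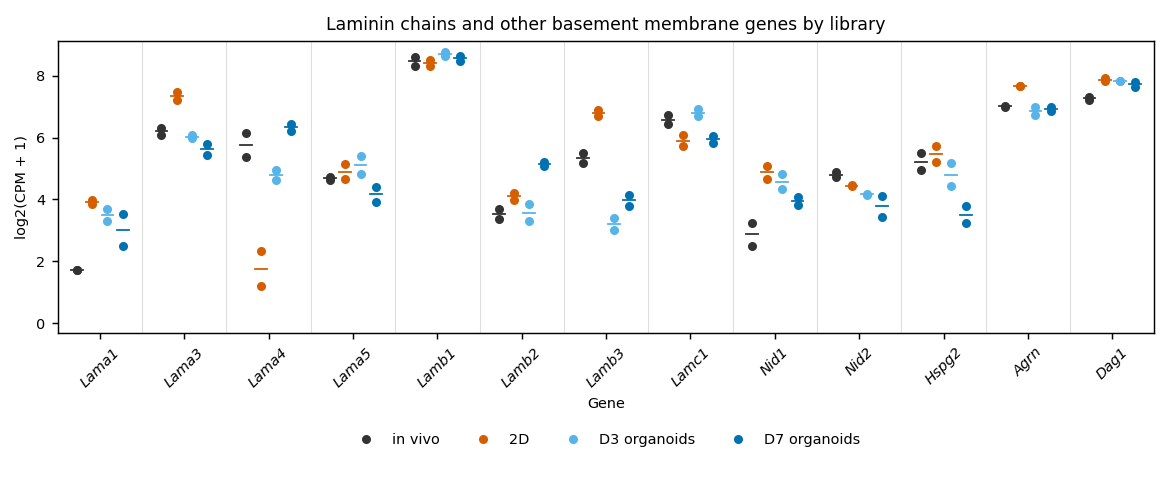
Level of the 8 laminin chains tested and of *Nid1*, *Nid2*, *Hspg2*, *Agrn* and *Dag1* in each library, as log2(CPM + 1), with a point per library, a line at the mean of the 2 points and a colour per group. The 2D points are lowest for *Lama4* and highest for *Lama3* and *Lamb3*, the D7 points are highest for *Lamb2* and lowest for *Hspg2*, and the points of *Lamb1* lie close together.

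The genes that link or fill the basement membrane also went different ways. *Nid1* and *Nid2* encode the nidogens, which join laminin to type IV collagen. *Nid1* was at 4.7 and 8.46 CPM *in vivo*, 24.5 and 33 CPM in 2D, 19.4 and 27 CPM in D3 organoids, and 15.9 and 13 CPM in D7 organoids. All culture libraries were above *in vivo*. The log2 fold change over *in vivo* was 2.11 ± 0.32 in 2D (adjusted p = 4.3e-05), 1.8 ± 0.32 in D3 organoids (adjusted p = 0.00035) and 1.12 ± 0.32 in D7 organoids (adjusted p = 0.013). The last was 0.77 without *in vivo* replicate 1 (adjusted p = 0.11) and 0.97 without D7 replicate 1 (adjusted p = 0.091). *Nid2* was at 28.5 and 25.4 CPM *in vivo*, 20.9 and 20.4 CPM in 2D, 16.7 and 17.1 CPM in D3 organoids, and 16.3 and 9.89 CPM in D7 organoids. Its difference from *in vivo* did not pass in 2D (adjusted p = 0.26) or D3 organoids (adjusted p = 0.066). D7 organoids were lower than *in vivo* (-1.02 ± 0.27, adjusted p = 0.0068), a call lost without D7 replicate 2 (-0.72, adjusted p = 0.12), the lowest of the 8 libraries.

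*Hspg2*, which encodes perlecan, was at 29.9 and 43.9 CPM *in vivo*, 36 and 52.3 CPM in 2D, 20.6 and 35.2 CPM in D3 organoids, and 12.7 and 8.5 CPM in D7 organoids. Both D7 libraries were below the other 6. D7 organoids were lower than *in vivo* (-1.78 ± 0.31, adjusted p = 0.00026), than 2D (-2.04 ± 0.31, adjusted p = 4.8e-05) and than D3 organoids (-1.38 ± 0.31, adjusted p = 0.0047). The last was -1 without D3 replicate 2 and -1.14 without D7 replicate 2, with adjusted p of 0.071 and 0.067.

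*Agrn*, the proteoglycan agrin, was at 127 and 128 CPM *in vivo*, 203 and 204 CPM in 2D, 105 and 127 CPM in D3 organoids, and 114 and 126 CPM in D7 organoids. 2D was higher than *in vivo* by 0.68 ± 0.16 (adjusted p = 0.0022), and D7 organoids were lower than 2D (-0.76 ± 0.16, adjusted p = 0.00076). *Dag1*, whose product dystroglycan binds the laminin alpha chains, perlecan and agrin through its sugars, was at 149 and 157 CPM *in vivo*, 228 and 240 CPM in 2D, 227 CPM in both D3 libraries, and 220 and 199 CPM in D7 organoids. All culture libraries were above *in vivo*. The log2 fold change over *in vivo* was 0.61 ± 0.15 in 2D (adjusted p = 0.0027), 0.57 ± 0.15 in D3 organoids (adjusted p = 0.0068) and 0.45 ± 0.15 in D7 organoids (adjusted p = 0.022). In D3 organoids it was 0.53 without *in vivo* replicate 1 (adjusted p = 0.052), and in D7 organoids it was 0.38 to 0.53 with adjusted p of 0.05 to 0.15 without either *in vivo* library or either D7 library.

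Promoters are shown for *Itga8*, which was highest in D7 organoids, and for *Itga2* and *Lamb3*, which were highest in 2D. They were chosen by the fitted D7 over 2D fold change, as the 2 largest in each direction among members that passed and reached 10 CPM in each library where they were higher. *Lama4*, the other member chosen that was higher in D7 organoids, had no entry in the table of sequences. The sequences are from RefSeq on build GRCm38.p6, which held a promoter for 24 of the 35 members, and run from 250 bases before to 50 after the annotated start, 5′ to 3′ on the gene's strand. They lie at chr2:12301895-12302194 (minus strand) for *Itga8*, chr13:114932051-114932350 (minus strand) for *Itga2* and chr1:193301744-193302043 (plus strand) for the first of 2 starts of *Lamb3*. Capitals mark matches to the motifs searched on both strands, which were TGANTCA (AP-1), GGAATG (TEAD) and GGGCGG (the GC box).
Itga8: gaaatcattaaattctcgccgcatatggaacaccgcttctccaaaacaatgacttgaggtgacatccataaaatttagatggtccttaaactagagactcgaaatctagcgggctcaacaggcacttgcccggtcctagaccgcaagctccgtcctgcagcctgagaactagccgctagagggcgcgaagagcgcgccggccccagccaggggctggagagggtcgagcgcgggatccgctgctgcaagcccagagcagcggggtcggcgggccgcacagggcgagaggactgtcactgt
Itga2: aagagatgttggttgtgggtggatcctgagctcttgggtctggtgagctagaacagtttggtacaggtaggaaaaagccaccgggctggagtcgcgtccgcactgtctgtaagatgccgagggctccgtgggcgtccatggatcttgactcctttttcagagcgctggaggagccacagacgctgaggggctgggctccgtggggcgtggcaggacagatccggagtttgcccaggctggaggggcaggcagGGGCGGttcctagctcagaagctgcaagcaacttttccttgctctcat
Lamb3: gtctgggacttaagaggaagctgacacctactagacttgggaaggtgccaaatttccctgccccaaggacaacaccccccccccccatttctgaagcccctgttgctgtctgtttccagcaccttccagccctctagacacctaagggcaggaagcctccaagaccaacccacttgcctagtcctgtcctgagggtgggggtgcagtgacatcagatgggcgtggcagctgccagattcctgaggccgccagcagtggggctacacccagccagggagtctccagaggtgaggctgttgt
The windows of *Itga8* and *Lamb3* held no match, and that of *Itga2* held 1 GC box, at position 253 from its 5′ end. The window of the second start of *Lamb3* held 1 TEAD match, at position 84. Of 32851 promoters of the same length, 7.81% held the AP-1 motif, 14.7% the TEAD motif and 35.7% the GC box.

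The genes around these receptors and ligands were read from lists chosen by function, with earlier results of these data known. For comparison, 41.6% of all genes tested passed in 2D over *in vivo* (19.9% higher and 21.7% lower), 34.8% in D7 organoids over *in vivo* (18.0% and 16.8%) and 45.5% in D7 organoids over 2D (24.4% and 21.1%). Of the 34 genes tested of the integrin adhesion complex, which couples integrins to actin, 21 were higher and 7 lower in 2D than *in vivo*, with a median log2 fold change of 0.72. In D7 organoids over 2D 6 were higher and 19 lower, with a median of -0.74, and in D7 organoids over *in vivo* 6 were higher and 10 lower. D3 organoids over 2D, at the same time in culture, gave 5 higher and 18 lower (median -0.63), beside 38.3% of all genes. In the other lists set against 2D below, D3 organoids gave 0 higher and 3 lower (hemidesmosome and tetraspanin), 3 and 11 (other integrin ligands) and 0 and 3 (other laminin receptors). *Actn1*, an actin crosslinker, was at 283 ± 18.7 CPM *in vivo*, 1157 ± 38.9 CPM in 2D and 122 ± 1.98 CPM in D7 organoids (SD, n = 2), so that it rose in 2D (2.03 ± 0.14, adjusted p = 5e-09) and fell in D7 organoids (-1.21 ± 0.14, adjusted p = 4.9e-06) relative to *in vivo*. *Parva*, which encodes a parvin that links integrins to actin, rose in D7 organoids over *in vivo* (1.17 ± 0.18, adjusted p = 9.2e-05).

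Of the 7 hemidesmosome and tetraspanin genes, 4 were higher and 1 lower in 2D than *in vivo*, and 0 were higher and 5 lower in D7 organoids than in 2D. The latter count was 3 without 2D replicate 2 or D7 replicate 1. *Cd151*, a tetraspanin that binds *Itga3* and *Itga6*, rose in 2D (1.46 ± 0.16, adjusted p = 1.5e-06) and in D7 organoids (0.99 ± 0.16, adjusted p = 0.00015) over *in vivo*, from 56.8 ± 2.6 CPM to 156 ± 4.35 and 113 ± 3.69 CPM (SD, n = 2). *Dst*, which encodes a plakin of the hemidesmosome in one of its isoforms, was lower than *in vivo* in D7 organoids (-2.85 ± 0.24, adjusted p = 1.1e-07). It was also lower in 2D (-0.84 ± 0.22, adjusted p = 0.0061), a call lost without *in vivo* replicate 2 (-0.62, adjusted p = 0.076) and without 2D replicate 1 (-0.51, adjusted p = 0.12). Of 22 other basement membrane genes tested, 11 were higher and 6 lower in 2D, and 12 higher and 5 lower in D7 organoids, than *in vivo*. *Sparc*, a collagen-binding matrix protein, rose in 2D by 2.18 ± 0.15 (adjusted p = 2.7e-09) and in D7 organoids by 2.21 ± 0.15 (adjusted p = 5.4e-09). *Col4a2*, a type IV collagen chain, was lower than *in vivo* in 2D (-1.42 ± 0.2, adjusted p = 1.5e-05). In D7 organoids it was also lower (-0.52 ± 0.19, adjusted p = 0.04), a call lost with library size alone as the scaling, and without *in vivo* replicate 2 or any 2D or D7 library (-0.61 to -0.41, adjusted p of 0.054 to 0.2).

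Of 16 other integrin ligands tested, 11 were higher and 3 lower in 2D than *in vivo*, and 2 were higher and 11 lower in D7 organoids than in 2D, with medians of 2.26 and -1.66. *Fn1*, fibronectin, was at 697 ± 40 CPM *in vivo*, 3959 ± 1210 CPM in 2D and 27.3 ± 0.538 CPM in D7 organoids (SD, n = 2), and its log2 fold change over *in vivo* was 2.51 ± 0.2 in 2D (adjusted p = 1.5e-08) and -4.67 ± 0.22 in D7 organoids (adjusted p = 1.2e-10). *Tnc*, the tenascin bound by *Itga9*, rose in 2D (0.84 ± 0.14, adjusted p = 0.00013), where *Itga9* was lowest, and fell in D7 organoids (-3.23 ± 0.16, adjusted p = 1.4e-10). *Vcam1*, a ligand of *Itga4*, fell in 2D (-2.11 ± 0.18, adjusted p = 4.7e-08) and in D7 organoids (-3 ± 0.19, adjusted p = 2.5e-09).

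Of the 7 other laminin receptors, 4 were higher and 1 lower in 2D than *in vivo*, and 0 were higher and 4 lower in D7 organoids than in 2D. The latter count was 2 without 2D replicate 2 or D7 replicate 1. *Sdc1*, a syndecan, rose in 2D by 2.38 ± 0.19 (adjusted p = 2.5e-08), and *Gpc1*, a glypican, was lower in 2D (-1.03 ± 0.2, adjusted p = 0.0005) and in D7 organoids (-1.63 ± 0.2, adjusted p = 9e-06). Of 18 genes tested that glycosylate dystroglycan or bind it inside the cell, 3 were higher and 2 lower in 2D, and 4 higher and 1 lower in D7 organoids, than *in vivo*. In both comparisons these 5 of 18 genes did not exceed the share of all genes. No set test was run, so no result about the list is drawn from the count. The count in 2D was 3 without *in vivo* replicate 1 and 1 without 2D replicate 2, and that in D7 organoids was 2 without *in vivo* replicate 1 or D7 replicate 2, and 3 with a filter at a mean of 10 CPM or DESeq2's Wald test. *Dmd*, dystrophin, rose in D7 organoids by 2.68 ± 0.29 (adjusted p = 1.5e-06).

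**Figure D5:**
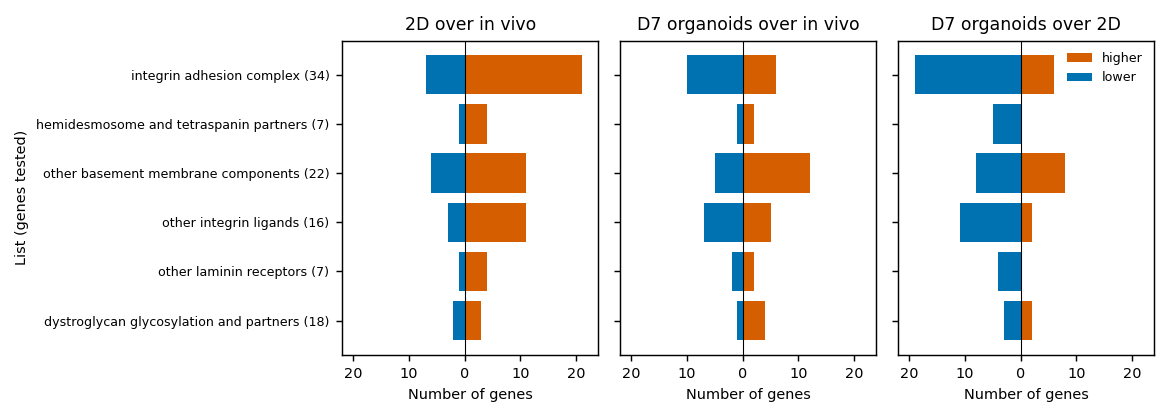
Number of genes higher (right, orange) or lower (left, blue) at an adjusted p below 0.05 in 6 lists around the members, for 2D TECs over *in vivo* TECs, D7 organoids over *in vivo* TECs and D7 organoids over 2D TECs; the number tested stands in brackets. In the adhesion complex 21 genes are higher and 7 lower in 2D than *in vivo*, and 6 are higher and 19 lower in D7 organoids than in 2D.

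For 22 of the 35 members, exons overlap those of a gene annotated on the opposite strand, and for 10 the overlap reaches the last 500 bases, where this method reads. Among the latter are *Itgb4* with *Galk1*, *Lama4* with *Fam229b*, *Lama5* with *Adrm1*, *Lamb1* with *Dld*, *Nid2* with *Rtraf*, *Hspg2* with *Ldlrad2*, *Itga2* with *Mocs2* and *Itga4* with *Cerkl*. The strand setting of the counting is not given in the sources used here, so reads of these pairs may not be told apart.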

How the data were processed

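Bulk RNA was measured in 8 libraries, 2 in each of 4 groups named by the labels. Per the labels and methods, the authors made QuantSeq 3′ libraries, aligned reads to GRCm39 with STAR and deposited raw counts per Ensembl gene, with no normalization. The annotation release, the strand setting and the treatment of multi-mapping reads are not given in the sources used here. The submitters' processing notes name R 4.1.2, edgeR and limma, and the authors tested with limma-voom. Nothing links replicates of different groups, and p-values measure the spread between these libraries.

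Symbols came from GENCODE vM39 (GRCm39), which matched 56236 of 56923 genes, 687 being unmatched, and all 35 members. Counts were analysed in R 4.3.3 with edgeR 4.0.16 (TMM, a filter of 1 CPM in 3 libraries, quasi-likelihood test of 4 groups in 1 model, Benjamini-Hochberg adjustment over 14504 genes, threshold 0.05), DESeq2 1.42.0 and limma 3.58.1. Tables were made in Python 3.11.15 (pandas 2.3.3, scipy 1.17.1). SE is the log2 fold change divided by the square root of F. On simulated counts for 2D over *in vivo* and 14504 genes, 76% of genes changed 4-fold and 37% changed 2-fold were called, with 9 unchanged genes. Exact counting intervals are at 95%, from the pooled counts of the libraries of each group, and leave out the spread between libraries. With 2 libraries a group no exact permutation test can reach the threshold. The 35 members and the lists were chosen with earlier results of these data known. All 35 members are accounted for, and from each list the examples are among the 4 genes of highest mean CPM among those called. Alternatives were DESeq2 size factors, library size only, no filter, a mean of at least 10 CPM, DESeq2's Wald test, limma-voom, a replicate block, the groups compared alone, no ribosomal RNA genes, and each of the 8 libraries left out.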

Additional observations from a re-analysis of the deposited data

How the results depend on the processing

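Of the 97 differences between groups that members passed, 72 could be tested under all 17 alternatives, and 51 of these passed under each. The other 25, of 8 low members, went untested under some alternatives, in 24 cases the filter at a mean of 10 CPM, and 13 of them passed wherever they were tested. Those of *Itgb2* could also not be tested without either *in vivo* library or 2D replicate 1. None of the 97 changed sign where tested, and 33 were lost with some library left out, 19 of them without D7 replicate 2. Among the other settings, 12 were lost, most with limma-voom (6) and with library size only (5). With a library left out, the number of members called was 17 to 21 in 2D over *in vivo*, 9 to 12 in D3 organoids over *in vivo*, 11 to 18 in D7 organoids over *in vivo*, 15 to 20 in D3 organoids over 2D, 16 to 21 in D7 organoids over 2D, and 2 to 9 in D7 over D3 organoids. For the lists around the members, the genes called in D7 over D3 organoids were 33, and 19 to 36 with a library left out (19 without D7 replicate 2). A library left out leaves 1 sample in its group, which is then assumed to vary like the others. With library size only, the median of all genes moved from -0.06 to -0.24 in 2D over *in vivo* and to 0.29 and 0.31 in D3 and D7 organoids over 2D, and 2221 genes were higher and 3802 lower in 2D over *in vivo* (against 2883 and 3150), 3872 and 1886 in D3 organoids over 2D (against 2798 and 2764), and 4340 and 2315 in D7 organoids over 2D (against 3546 and 3059). Members were then 15 higher and 7 lower in 2D over *in vivo* and 8 higher and 9 lower in D3 organoids over 2D. In a fit of those groups alone, members in D7 organoids over *in vivo* were 9 higher and 9 lower, against 11 and 7. A replicate block gave 21, 13, 18, 19, 23 and 9 members called in the 6 comparisons in the order above, against 20, 12, 18, 18, 21 and 8, and lost no call. The correlation between groups of the difference of replicate 1 and 2 was 0.026 to 0.132, and the labels do not tie the numbers to shared animals, so the block was not used for calls. The cause of the changes with single libraries was not tested. Depth limits members under about 1 CPM, where a library held only a few counts.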
